A study of Mus musculus with 8 samples.

Results

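The chaperonins are barrel-shaped protein folding machines, and the transcripts of 10 chaperonin genes were measured in mouse germinal centre B cells. They were the 8 genes of the cytosolic chaperonin CCT (Tcp1, Cct2, Cct3, Cct4, Cct5, Cct6a, Cct7 and Cct8) and the 2 genes of the mitochondrial chaperonin (Hspd1 and Hspe1). They were taken by symbol from a table of 23234 genes, and each had 1 row. All 10 passed the filter on low values, which kept 10610 genes for testing. RNA of sorted cells was sequenced in 4 groups of 2 libraries, from the light zone (LZ), where these B cells are selected, and from the dark zone (DZ), where they divide. Every group came from C57BL/6 mice carrying Prdm1(f/f), ERT2cre(KI/+) and B1-8hi(KI/+), so both genotypes were floxed for Prdm1, the gene of the plasma cell regulator Blimp1. The sKO cells were Bach2(+/+) and the dKO cells Bach2(f/f). Bach2 is a transcriptional repressor that restrains the passage of B cells to plasma cells. Naive donor cells were moved into wild-type recipients, which received 3 mg of tamoxifen for 3 days to activate the ERT2cre recombinase, and were then immunized with NP-CGG in alum. On day 10, NP-binding donor cells were sorted as CD86hi CXCR4lo (LZ) or CD86lo CXCR4hi (DZ). Spleen cells of 5 recipients were pooled for the sort. The labels do not say that the 2 libraries of a group came from separate pools, so a p-value here reflects only how far apart these libraries were, which may be technical. Cells with intact Prdm1 were not analysed here, so each genotype difference describes a Bach2 allele on a Prdm1-floxed background.

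Both chaperonins enclose an unfolded protein in a chamber and release it after ATP hydrolysis. CCT, also called TRiC, is a double ring in which each of the 8 subunits holds a fixed place, and it folds actin, tubulins and several cell cycle proteins. Hspd1 (HSP60) forms the mitochondrial barrel, and Hspe1 (HSP10) is the lid that closes it, so that proteins imported into the mitochondrial matrix can fold inside. Dividing B cells require the synthesis and folding of much new protein.

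The Hspd1 and Hspe1 genes run in opposite directions from a shared region. Hspd1 has 2 promoter windows, and from its first start it overlaps the beginning of Hspe1, whereas its second start lies beyond the Hspe1 start. RefSeq promoter windows of the GRCm38.p6 build, running from 250 bases before to 50 bases after a start, were present for 9 of the 10 genes (12 windows), and 6 motifs were searched on both strands of each. The stretches below are shown because they are where the members carry the letters of well-known motifs, and each is written 5′ to 3′ on the strand of its gene with the motif in capitals. The first is at chr1:55088053-55088082 on the plus strand (the strand of Hspe1), between the Hspe1 start and the second Hspd1 start and thus inside the Hspd1 gene as counted from its first start, with its capitals starting 89 bases before the Hspe1 start. The Hspd1 E-box stretch is at chr1:55088306-55088335 and the Cct8 stretch at chr16:87495888-87495917, both on the minus strand. The Cct3 stretch is at chr3:88296956-88296985 and the Cct6a stretch at chr5:129787285-129787314, both on the plus strand.
Hspe1 and Hspd1, heat shock element: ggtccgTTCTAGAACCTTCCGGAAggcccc
Hspd1, E-box: ggccggctgggaCACGTGaaaaggccgcgc
Cct3, NRF1 core: ccacgccagtGCGCAAGCGCttgcgtctcc
Cct8, ETS core: gggcggggcgaCCGGAAGtagggggacgcg
Cct6a, CCAAT box: cgttggattaagCCAATcagcgggcggcag

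The heat shock element, searched as GAA, TTC and GAA with any 2 bases between each, was present in 0.603% of the 32851 windows of all genes and in 2 of the 12 chaperonin windows, which are the window of Hspe1 and the second window of Hspd1. Both windows hold the same stretch of DNA, so this is 1 site read from either side, and its capitals hold 2 overlapping matches. The ETS core CCGGAAG overlaps that site, and it was found in 5 of the 12 windows (Hspd1, Hspe1, Cct2, Cct8 and Tcp1) against 8.86% of all windows. Its matches in the Hspd1 and Hspe1 windows are again the same DNA read from either side. The NRF1 core, searched as GCGCA and GCGC with any 1 base between, was found in 4 windows of 3 genes (Hspd1, Cct3 and Cct5) against 4.6% of all windows. CCAAT was found in windows of 5 genes (Hspd1, Cct3, Cct6a, Cct7 and Tcp1), and 37.4% of all windows hold it. The E-box CACGTG was in 1 chaperonin window, of Hspd1, and in 7.15% of all windows. TGAGTCA, a core that BACH proteins and AP-1 bind, was in 0 of the 12 windows and in 5.2% of all windows. A match describes the letters in a window, and it does not show that a factor binds there.

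Levels were FPKM, fragments scaled to transcript length and to the fragments of the library, so that genes of different length can be compared. The FPKM values of a library summed to 502214 to 540885, and 10192 to 10250 genes had at least 1 FPKM. Replicates of a group had r of 0.946 to 0.960 over tested genes on the log2 scale. In LZ, Bach2 was at 49.8 to 53.4 FPKM in sKO and at 62.7 to 64.5 FPKM in dKO, but the value covers the whole gene, including exons that the deletion leaves, so it checks nothing about the deletion. Prdm1, floxed in every group, was at 0.0577 and 0.0184 FPKM in sKO LZ and at 0.98 and 0.967 FPKM in dKO LZ, and the same limit holds for it. All 7 germinal centre B cell markers were detected, at a summed 2123 to 2858 FPKM, and in dKO LZ 1 of them was higher and 4 were lower than in sKO LZ by limma.

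**Figure D1:**
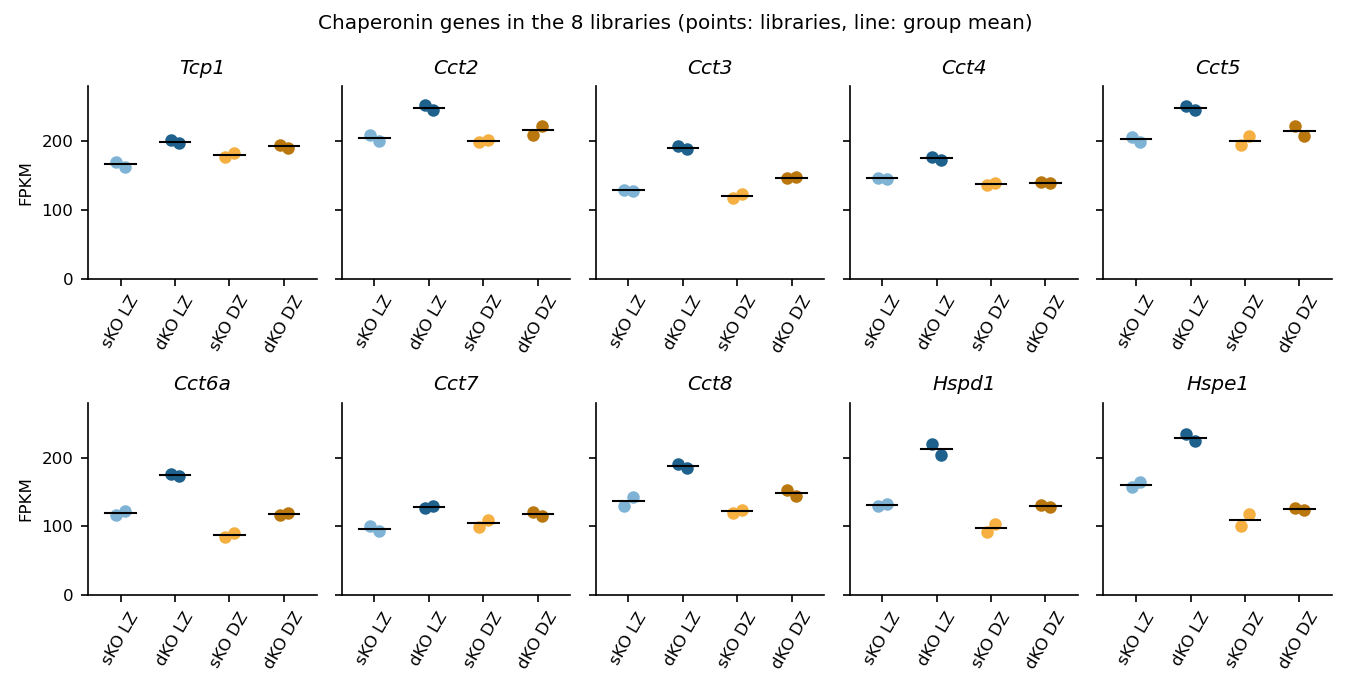
FPKM of each chaperonin gene (vertical axis, from 0) in the 4 groups (horizontal axis), with a point for each library and a line for the group mean. In all 10 panels the dKO LZ mean is the highest of the 4, with Hspd1 at 212 FPKM against 132 in sKO LZ.

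The chaperonins were abundant transcripts. Ranked by mean level, they lay between rank 319 (Cct2) and rank 688 (Cct7) of the 10610 tested genes, and together they made up 0.263% to 0.374% of a library's FPKM sum. Each of the 10 had its highest group mean in dKO LZ. The lowest group was sKO DZ for 8 of them and sKO LZ for the other 2, Tcp1 and Cct7.

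The first comparison asked how LZ cells with floxed Bach2 differed from LZ cells with intact Bach2. All 10 chaperonin genes rose in dKO LZ (10 of 10 past an adjusted p of 0.05 by limma with Benjamini-Hochberg adjustment over all tested genes, where 18.4% of tested genes were higher and 12.7% lower). In each of the 10, both dKO libraries were above both sKO libraries, which held for 36.5% of tested genes. The rises were moderate, at a median of 0.43 on the log2(FPKM + 1) scale, beside a median of 0.022 over all tested genes. In bulk RNA such as this, a shift in the kinds of cell and a shift in RNA per cell cannot be told apart.

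The mitochondrial pair, summed, had a larger ratio between genotypes than the summed CCT genes. Hspd1, the barrel, stood at 129.7 and 133 FPKM in sKO LZ and at 219.7 and 204 FPKM in dKO LZ. Its change of 0.68 ± 0.066 (log2, SE) had an adjusted p of 0.00141 by limma and exceeded the change of 98.3% of tested genes. Hspe1, the lid, was at 157 and 164 FPKM in sKO LZ and at 235 and 224 FPKM in dKO LZ. It rose by 0.51 ± 0.073, with an adjusted p of 0.00414 by limma. Summed, the pair went from 292 ± 7.35 FPKM to 441 ± 18.8 FPKM (SD, n = 2), a ratio of 1.51. For both genes the gap between genotypes was several times the gap between replicates.

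Among the CCT genes, Cct3, Cct6a and Cct8 formed the upper end of the rises. Cct3, the gamma subunit, was at 129.7 and 127 FPKM in sKO LZ and at 192 and 188 FPKM in dKO LZ, a change of 0.56 ± 0.038 (adjusted p = 0.000887 by limma). Cct6a, the zeta subunit, was at 117 and 122 FPKM in sKO LZ and at 176 and 174 FPKM in dKO LZ, a change of 0.54 ± 0.042 (adjusted p = 0.000964 by limma). Cct8, the theta subunit, was at 130.2 and 143 FPKM in sKO LZ and at 191 and 184 FPKM in dKO LZ, a change of 0.46 ± 0.056 (adjusted p = 0.00264 by limma). The mean ratios of these genes were 1.48, 1.46 and 1.37. Cct7, the eta subunit and the least abundant CCT gene in LZ, was at 101 and 93.1 FPKM in sKO LZ and at 127 and 129 FPKM in dKO LZ, a change of 0.40 ± 0.061 (adjusted p = 0.00516 by limma).

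The other CCT genes rose by 0.25 to 0.29 and also had no overlap between genotypes. Cct2, the beta subunit, was at 208 and 201 FPKM in sKO LZ and at 253 and 245 FPKM in dKO LZ. Cct5, the epsilon subunit, was at 206 and 199 FPKM in sKO LZ and at 252 and 246 FPKM in dKO LZ. These were the most abundant of the subunits in LZ, and their ratios of 1.22 and 1.23 were below those of the less abundant Cct3, Cct6a, Cct7 and Cct8. Tcp1, the alpha subunit, was at 170.2 and 163 FPKM in sKO LZ and at 201 and 197 FPKM in dKO LZ. Cct4, the delta subunit, was at 147 and 146 FPKM in sKO LZ and at 176 and 173 FPKM in dKO LZ. Both had a ratio of 1.19. The adjusted p values of these genes by limma were 0.00547 for Cct2, 0.00746 for Cct5, 0.00519 for Tcp1 and 0.00313 for Cct4. The summed level of the CCT genes rose from 1202 ± 10.8 FPKM to 1551 ± 22.7 FPKM (SD, n = 2), a ratio of 1.29.

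**Figure D2:**
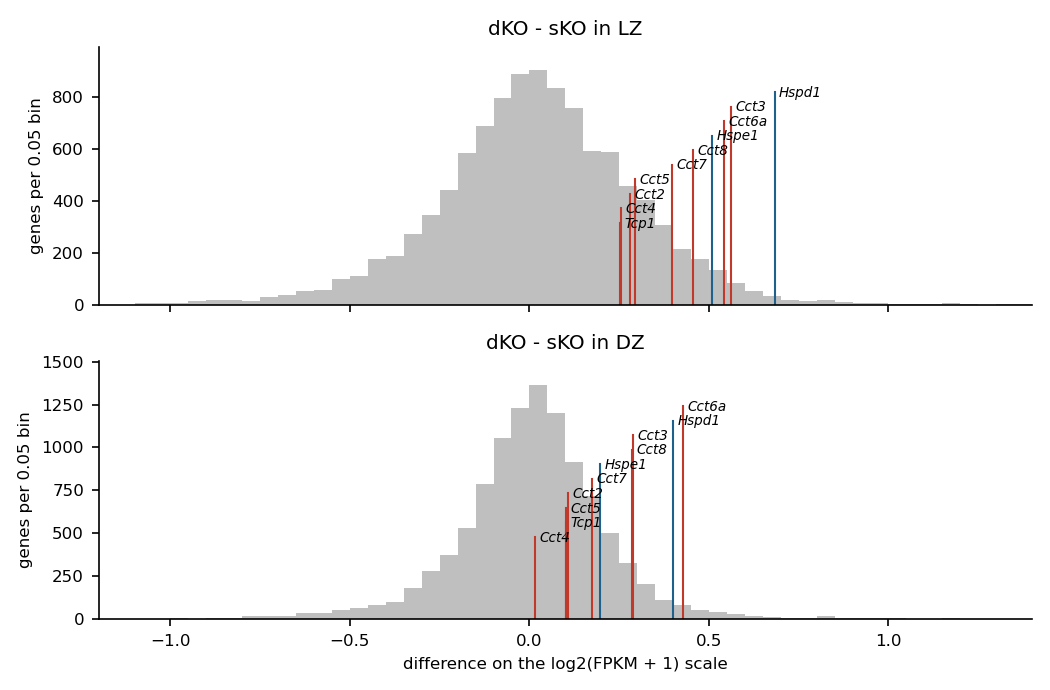
Histogram of the dKO minus sKO difference on the log2(FPKM + 1) scale (horizontal axis) for the 10610 tested genes in LZ (upper panel) and DZ (lower panel), with the count of genes per bin on the vertical axis and the chaperonins as lines (CCT genes red, mitochondrial genes blue). In LZ the 10 lines lie between 0.25 and 0.68, and in DZ between 0.017 and 0.43, with 94 genes in LZ and 83 in DZ outside the drawn range.

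Markers of other cells moved with some LZ libraries. Of 7 myeloid genes, 5 had at least 1 FPKM in 2 libraries and none was at 0 throughout. Their summed level was 16.9 and 64.8 FPKM in sKO LZ and 27.7 and 149.5 FPKM in dKO LZ, against 5.12 to 8.85 FPKM in the DZ libraries. In dKO LZ 1 of the 5, Tyrobp, rose (adjusted p = 0.0493 by limma). Mpeg1 fell, from a mean of 12.6 to 7.95 FPKM (-0.59, adjusted p = 0.0275 by limma). Mpeg1 was at 3.91 to 6.83 FPKM in the DZ libraries, most of the sum there, and at 10.5 FPKM in sKO LZ replicate 1. Of 4 plasma cell markers, 2 had at least 1 FPKM in 2 libraries and none was at 0 throughout, and their sum was 80.5 and 87.6 FPKM in sKO LZ, 92.0 and 92.8 FPKM in dKO LZ and 72.1 to 83.8 FPKM in DZ. The 2 tested, Xbp1 and Irf4, did not pass in dKO LZ (0.10 and 0.18, adjusted p = 0.339 and 0.296 by limma). Irf4 fell in dKO DZ (-0.51, adjusted p = 0.0417 by limma). Sdc1, a plasma cell surface protein gene, was at 0.0666 and 0.0637 FPKM in sKO LZ and at 0.606 and 0.505 FPKM in dKO LZ. It did not reach 1 FPKM in 2 libraries and was not tested. Of 4 erythroid genes, 2 reached that level, none was at 0 throughout, and the sum was 1.74 and 13.5 FPKM in sKO LZ, 19.9 and 15.98 FPKM in dKO LZ and 3.59 to 10.7 FPKM in DZ. Lck, the only 1 of 5 T cell genes to reach it, was at 53.0 and 58.5 FPKM in sKO LZ, 62.6 and 64.6 FPKM in dKO LZ and 32.7 to 35.1 FPKM in DZ, while Cd3e, Cd3g, Cd4 and Cd8a had group means of at most 0.261 FPKM. The part of the plasma cell, erythroid and T cell genes in the chaperonin differences was not tested. With both LZ replicate 2 libraries, those with the most myeloid signal of each genotype, left out, an alternative chosen after seeing the data, the median chaperonin difference in LZ was 0.44 and the 10 values ran from 0.24 to 0.76. That fit has 1 library a group in LZ, and fewer genes passed in it, among the 10 and over all tested genes. Leaving out single libraries ended 1 call of the LZ comparison, that of Cct5 without the dKO LZ replicate 1 library (adjusted p = 0.0513 by limma).

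In DZ, fewer of the genes passed. Cct3, Cct6a, Cct8 and Hspd1 rose in dKO DZ, 4 of the 10 at an adjusted p under 0.05 by limma, where 6.63% of tested genes were higher, and none fell, where 5.23% did. The same 4 had also risen in LZ, and 5.81% of tested genes rose in both zones. At an unadjusted p under 0.05 there were 8 of the 10, against 15.9% of tested genes. The dKO libraries were above both sKO libraries for 9 of the 10, against 32.3% of tested genes, and Cct4 was the one that overlapped. The median difference was 0.19, beside 0.014 over all tested genes.

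Cct6a had the largest DZ difference of the 10. It was at 85.1 and 90.1 FPKM in sKO DZ and at 117 and 119 FPKM in dKO DZ, a change of 0.43 ± 0.042 (adjusted p = 0.0049 by limma). Hspd1 was at 92.3 and 104 FPKM in sKO DZ and at 132 and 128 FPKM in dKO DZ, a change of 0.40 ± 0.066 (adjusted p = 0.0159 by limma). Cct3 was at 117 and 123 FPKM in sKO DZ and at 146 and 148 FPKM in dKO DZ, a change of 0.29 ± 0.038 (adjusted p = 0.00909 by limma). In all of these the genotypes stood apart by more than the replicates did. Cct8 was at 119.8 and 124 FPKM in sKO DZ and at 153 and 145 FPKM in dKO DZ, a change of 0.29 ± 0.056 (adjusted p = 0.0258 by limma).

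The other 6 genes did not pass in DZ. Hspe1 was at 101 and 118 FPKM in sKO DZ and at 127 and 124 FPKM in dKO DZ, a difference of 0.20 ± 0.073 (adjusted p = 0.139 by limma). Its sKO DZ libraries were further apart than those of any other chaperonin gene in DZ, with an SD of 11.9 FPKM. Cct7 was at 99.3 and 109 FPKM in sKO DZ and at 120.4 and 115 FPKM in dKO DZ (adjusted p = 0.12 by limma). Cct2 was at 198 and 202 FPKM in sKO DZ and at 209 and 222 FPKM in dKO DZ (adjusted p = 0.169 by limma). These genes had no overlap between genotypes, at ratios of 1.14, 1.13 and 1.08. Tcp1 was at 176 and 182 FPKM in sKO DZ and at 194 and 190.5 FPKM in dKO DZ (adjusted p = 0.152 by limma). Cct5 was at 194 and 207 FPKM in sKO DZ and at 223 and 208 FPKM in dKO DZ (adjusted p = 0.248 by limma). Both had a ratio of 1.07. Cct4 was at 136 and 139.7 FPKM in sKO DZ and at 141 and 139 FPKM in dKO DZ, a ratio of 1.01 with groups that overlapped (adjusted p = 0.806 by limma).

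The DZ count depended on single libraries. It was lower without sKO DZ replicate 1, dKO DZ replicate 1 or dKO DZ replicate 2, each of which leaves 1 library in a group. Fewer of all tested genes were higher in dKO DZ in those fits too, so the drop was not particular to the chaperonins. The median chaperonin difference in those fits was 0.10, 0.17 and 0.21, in that order, and it was 0.28 without sKO DZ replicate 2. The call of Cct8 was the least stable. It was lost without any 1 of the sKO DZ and dKO DZ libraries, where the Cct8 difference ran from 0.25 to 0.33.

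The genotype difference was then compared between zones. The estimate was larger in LZ than in DZ for all 10 genes, against 53.3% of tested genes, but none passed the adjusted threshold by limma, and only 0.0283% of tested genes did so in that direction. At an unadjusted p under 0.05 there were 8 of the 10, against 7.15% of tested genes. The smallest p among them belonged to Cct3, whose LZ effect exceeded its DZ effect by 0.27 ± 0.054 (adjusted p = 0.309 by limma). Hspe1 had the largest estimate, 0.31 ± 0.10 with an interval of 0.062 to 0.56 (adjusted p = 0.384 by limma). Cct6a had the smallest, 0.12 with an interval of -0.029 to 0.26. Passing in LZ and missing in DZ therefore does not show that the effect of a given gene differs by zone.

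**Figure D3:**
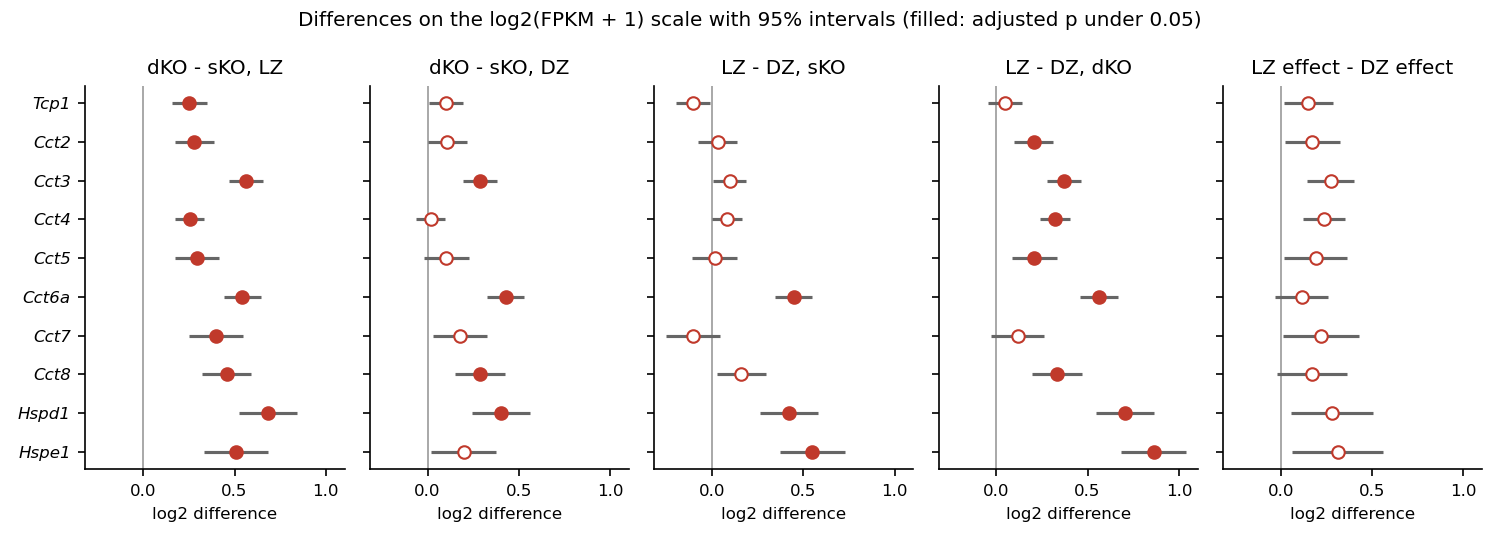
Differences of each chaperonin gene on the log2(FPKM + 1) scale (horizontal axis) with 95% intervals in the genotype comparisons, the zone comparisons and the difference between zones, filled where the adjusted p was under 0.05. All 10 points are filled for dKO minus sKO in LZ, 4 in DZ, 3 for LZ minus DZ in sKO, 8 in dKO and 0 for the difference between zones.

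The zones were compared next within each genotype. In sKO cells, Hspe1, Cct6a and Hspd1 rose in LZ over DZ, 3 of the 10 by limma where 15.2% of tested genes were higher, and none fell, where 16.1% of tested genes did. The LZ libraries lay above both DZ libraries for 6 of the 10, against 32.7% of tested genes, and below both for 1, Tcp1, against 33.1%. Hspe1 was higher by 0.55 ± 0.073 (adjusted p = 0.00289 by limma), a ratio of 1.46. Cct6a was higher by 0.45 ± 0.042 (adjusted p = 0.000895 by limma), and Hspd1 by 0.42 ± 0.066 (adjusted p = 0.00509 by limma). The summed mitochondrial pair stood at 292 ± 7.35 FPKM in sKO LZ and at 208 ± 20.3 FPKM in sKO DZ (SD, n = 2). The summed CCT level differed less, at 1202 ± 10.8 and 1152 ± 35.6 FPKM, a ratio of 1.04. Of the CCT genes other than Cct6a, the largest zone difference in sKO was that of Cct8, 0.16 ± 0.056 (adjusted p = 0.0732 by limma). Tcp1 lay at -0.11 ± 0.039 and did not pass (adjusted p = 0.0859 by limma). With every library scaled to the same FPKM sum, an alternative chosen after seeing the data, Tcp1 and Cct7 passed as lower in LZ, at -0.16 each, and with upper quartile scaling Cct3 and Cct4 passed as higher, at 0.12 and 0.10.

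In dKO cells, 8 of the 10 rose in LZ over DZ by limma, where 18.0% of tested genes were higher, and none fell, where 16.1% did. All 10 had both LZ libraries above both DZ libraries, against 37.7% of tested genes. Hspe1 rose by 0.86 ± 0.073 (adjusted p = 0.000483 by limma), a ratio of 1.82, and Hspd1 by 0.70 ± 0.066 (adjusted p = 0.00067 by limma), a ratio of 1.63. Cct6a rose by 0.56 ± 0.042, Cct3 by 0.37 ± 0.038, Cct8 by 0.33 ± 0.056 and Cct4 by 0.32 ± 0.034. Cct5, at 0.21 ± 0.051, and Cct2, at 0.20 ± 0.044, passed more narrowly (adjusted p = 0.0222 and 0.0142 by limma). Scaled to the same FPKM sum, Cct2 and Cct5 no longer passed (adjusted p = 0.071 and 0.0537 by limma), nor did either without the dKO LZ replicate 1 library. Cct2 also missed without dKO DZ replicate 1, and Cct5 without dKO LZ replicate 2 or dKO DZ replicate 2. Tcp1 and Cct7 did not pass (adjusted p = 0.397 and 0.189 by limma). The genotype and zone comparisons share libraries, and the difference of the zone effect between genotypes is the same test as that of the genotype effect between zones, which no member passed. The summed myeloid markers and Lck were higher in LZ than in DZ in both genotypes. Without both LZ replicate 2 libraries, the zone difference of Hspd1 in sKO was 0.40, beside a median of 0.092 over the 10. In dKO the zone difference was 0.23 for Cct2 and 0.22 for Cct5, beside a median of 0.345. The calls of Hspd1 in sKO and of Cct2 and Cct5 in dKO were lost in that fit. Fewer of all tested genes passed in it as well.

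The composition of each chaperonin also varied. Within CCT, whose ring takes each subunit at the same place and number, the 8 transcripts were not equal. Cct2 and Cct5 were the most abundant in every group, and their libraries overlapped each other in every group. In sKO LZ, Cct2 held 17.0% and Cct5 16.9% of the summed CCT level, and Cct7 held 8.07%. In LZ the highest subunit was 2.11 times the lowest in sKO and 1.95 times in dKO, and in DZ it was 2.31 and 1.91 times. The coefficient of variation over the 8 subunits in LZ was 25.7% ± 1.07 in sKO and 20.6% ± 0.699 in dKO (SD, n = 2). In DZ it was 30.4% ± 0.634 in sKO and 25.1% ± 0.373 in dKO. In each zone the subunits were thus closer to each other in dKO than in sKO, by more than the replicate spread.

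Over the 4 groups, Cct6a and Tcp1 had the widest ranges of group mean share. Between genotypes within LZ it was Cct3 that moved most, from 10.7% ± 0.0512 to 12.3% ± 0.00783, and within DZ Cct6a. In LZ, Tcp1 took 13.9% ± 0.294 of the CCT sum in sKO and 12.8% ± 0.00853 in dKO (SD, n = 2), and in DZ 15.6% ± 0.125 and 14.9% ± 0.0576. In LZ, Cct6a took 9.97% ± 0.398 in sKO and 11.3% ± 0.0603 in dKO, and in DZ 7.61% ± 0.0725 and 9.13% ± 0.177. The share of Tcp1 was therefore lowest, and that of Cct6a highest, in dKO LZ, with the reverse in sKO DZ. Cct6a was the lowest subunit in sKO DZ, and Cct7 was the lowest in sKO LZ and dKO LZ. In dKO DZ the libraries of Cct6a and Cct7 overlapped at the lower end.

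**Figure D4:**
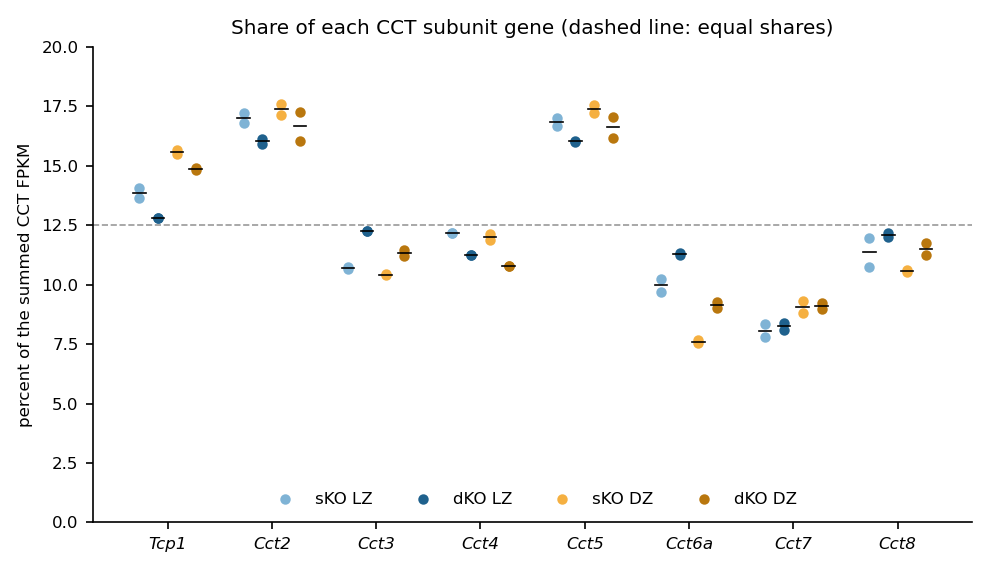
Share of each CCT subunit gene in the summed CCT level (vertical axis, percent of FPKM) for each library, coloured by group, with lines for the group means and a dashed line where all shares would be equal. Cct2 and Cct5 lie above the dashed line and Cct7 below it in every group, and Cct6a ranges from 7.61% in sKO DZ to 11.3% in dKO LZ.

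The barrel and lid of the mitochondrial chaperonin also shifted against each other. The ratio of Hspd1 to Hspe1 was 0.819 ± 0.00836 in sKO LZ and 0.925 ± 0.0159 in dKO LZ (SD, n = 2). In DZ it was 0.896 ± 0.0202 in sKO and 1.03 ± 0.00459 in dKO. In each zone the dKO libraries had relatively more Hspd1, by more than the replicate spread. The mitochondrial pair relative to the CCT sum in LZ was 0.243 ± 0.0083 in sKO and 0.284 ± 0.00793 in dKO, and in DZ 0.180 ± 0.0121 and 0.197 ± 0.00175. It was higher in LZ than in DZ in both genotypes.

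Other folding genes were counted in lists to set the chaperonins beside their partners. Beside these counts, 18.4% of all tested genes rose and 12.7% fell in dKO LZ, and 6.63% rose and 5.23% fell in dKO DZ. Upstream of CCT, prefoldin hands over unfolded actin and tubulin. Of 5 tested prefoldin genes, 2 rose in dKO LZ and none fell, with a median of 0.065, which turned negative under at least 1 alternative. Neither rise passed without both LZ replicate 2 libraries, a fit in which fewer of all tested genes passed. Pfdn2 went from a mean of 60.4 to 81.0 FPKM, a rise of 0.42 ± 0.057 (adjusted p = 0.00347 by limma), and Pfdn4 from 24.4 to 32.5 FPKM, a rise of 0.40 ± 0.051 (adjusted p = 0.00286 by limma). Pfdn5 stood at 220.02 and 203 FPKM, a difference of -0.11 (adjusted p = 0.224 by limma). None of 3 phosducin-like CCT cofactors and none of 6 tubulin folding cofactors passed by limma in the genotype comparison of either zone. Pdcl3, a phosducin-like cofactor, was at 20.03 FPKM in sKO LZ and 19.0 FPKM in dKO LZ.

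Of 21 tested genes whose proteins fold on CCT, 8 rose in dKO LZ, where 18.4% of tested genes did. None fell (at most 1 under other scalings), and the median was 0.16. Most of the 8 were tubulin genes (Tuba1a, Tuba1b, Tuba1c, Tuba4a, Tubb5 and Tubg1), and the others were Ccne1 and Hdac3. The actin genes Actb and Actg1 did not rise, at -0.11 and -0.16 in LZ (adjusted p = 0.280 and 0.0587 by limma). In DZ, Actg1 was at -0.20 (adjusted p = 0.0546 by limma). Ccne1, which encodes cyclin E, went from 18.0 ± 0.590 to 24.3 ± 0.572 FPKM (adjusted p = 0.00191 by limma). Tubg1, gamma tubulin, went from 24.3 ± 1.76 to 34.3 ± 2.21 FPKM (adjusted p = 0.00483 by limma), and Tuba1b, an alpha tubulin, from 410.3 ± 35.2 to 549 ± 7.97 FPKM (adjusted p = 0.00551 by limma). In sKO, 12 of the 21 fell in LZ against DZ and none rose, at a median of -0.33, where 16.1% of tested genes fell and 15.2% rose. In dKO 6 fell and 1 rose, where 16.1% of tested genes fell and 18.0% rose. Without either dKO LZ library fewer rose in dKO LZ, as did fewer of all tested genes. The LZ median ran from 0.096 to 0.33 over all settings. Fewer fell between zones in sKO without sKO DZ replicate 2, again as over all tested genes. The zone count in dKO was 10 lower with the same FPKM sum, and leaving out single libraries moved it both down and up. The median of the zone difference in dKO ran from -0.26 to -0.15 over all settings. Without both LZ replicate 2 libraries, fewer rose in dKO LZ over sKO LZ and fewer fell in LZ against DZ in sKO. Calls over all tested genes dropped there too.

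In mitochondria, 7 of 10 other chaperones and proteases rose in dKO LZ, where 18.4% of tested genes did, and none fell, with a median of 0.36. Hspa9, the matrix HSP70 that passes imported proteins to Hspd1, went from 78.6 ± 0.212 to 125 ± 2.62 FPKM in LZ (0.66 ± 0.054, adjusted p = 0.000984 by limma). In DZ it went from 56.4 ± 3.38 to 76.5 ± 3.49 FPKM (adjusted p = 0.00811 by limma), so its differences were close to those of Hspd1 in both zones. Trap1, a mitochondrial HSP90, rose by 0.44 ± 0.051 in LZ, and the protease subunit gene Afg3l2 by 0.34 ± 0.047. Of 10 import genes 6 rose in LZ, against the same 18.4%, and none fell, with a median of 0.30. Among them the channel gene Tomm40 rose by 0.50 ± 0.058, the receptor gene Timm50 by 0.51 ± 0.063 and the inner membrane channel gene Timm23 by 0.38 ± 0.054. In DZ, 3 of the 10 chaperones and proteases and 1 of the 10 import genes rose, where 6.63% of tested genes did, so the import count is near that share.

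The cytosolic HSP70 and HSP90 genes moved in both zones, with 14 of 19 higher and none lower in dKO LZ, and 9 higher and none lower in dKO DZ. Over all tested genes, 18.4% were higher in dKO LZ and 6.63% in dKO DZ. Ahsa1, an activator of HSP90, rose by 0.50 ± 0.040 in LZ (adjusted p = 0.000979 by limma). Hsp90aa1, a stress-responsive HSP90, went from 285 ± 14.4 to 411 ± 2.35 FPKM in LZ, and Stip1, which links HSP70 to HSP90, from 83.1 ± 2.18 to 113 ± 1.87 FPKM. Hspa4l, Hspa1a, Hspa1b, Dnajb1 and Dnajb6 did not pass in dKO LZ, and Hspa1a and Hspa1b had group means of at most 1.43 FPKM. Bag3 did not reach 1 FPKM in 2 libraries and was not tested. Of 11 genes for chaperones of the endoplasmic reticulum, 10 rose in dKO LZ and none fell, with a median of 0.34. Calr, a lectin chaperone gene, went from 289 ± 2.28 to 357 ± 4.27 FPKM in LZ (adjusted p = 0.00193 by limma). Hsp90b1, the HSP90 of that compartment, went from 131 ± 1.51 to 187 ± 3.00 FPKM in LZ (adjusted p = 0.000884 by limma), and Canx rose by 0.38 ± 0.038 (adjusted p = 0.00161 by limma). All 11 were higher in LZ than in DZ in each genotype, against 15.2% of tested genes in sKO and 18.0% in dKO. In DZ, 3 of the 11 rose with genotype and Pdia4, a disulfide isomerase, fell by 0.20. The DZ counts depended on single libraries. Without either dKO DZ library or sKO DZ replicate 1, fewer mitochondrial, HSP70, HSP90 and endoplasmic reticulum genes were higher in dKO DZ, as were fewer of all tested genes. Over all settings, the DZ median ran from 0.17 to 0.26 for HSP70 and HSP90 genes and from 0.13 to 0.21 for endoplasmic reticulum genes. It ran from 0.17 to 0.23 for mitochondrial chaperones and proteases and from 0.069 to 0.17 for import genes. The import gene was lost without either dKO LZ library, either dKO DZ library or sKO DZ replicate 1. Pdia4 was lost without any 1 library.

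Of genes related in sequence to the chaperonins, Cct8l1 was listed at 0 and Cct6b had group means of at most 0.179 FPKM. Mkks, Bbs10 and Bbs12, which serve the assembly of a ciliary complex, were at 1.30 to 5.45 FPKM, and none passed by limma in LZ or DZ. Both tested heat shock factor genes passed in dKO LZ, with Hsf1 at 19.4 and 23.0 FPKM in sKO and dKO (adjusted p = 0.0484 by limma) and Hsf2 at 4.13 and 5.48 FPKM (adjusted p = 0.0291 by limma). Under other scalings at most 1 of these factors passed, and neither call held without any 1 of the LZ libraries or without both LZ replicate 2 libraries. Without both LZ replicate 2 libraries, fewer genes passed in dKO LZ, in the larger folding lists and over all tested genes. Over all settings, the LZ median ran from 0.30 to 0.37 for mitochondrial chaperones and proteases and from 0.24 to 0.32 for import genes. It ran from 0.22 to 0.46 for HSP70 and HSP90 genes and from 0.28 to 0.36 for endoplasmic reticulum genes. Every list here was chosen with results of these data known, and the counts describe the lists without a test of the list.

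**Figure D5:**
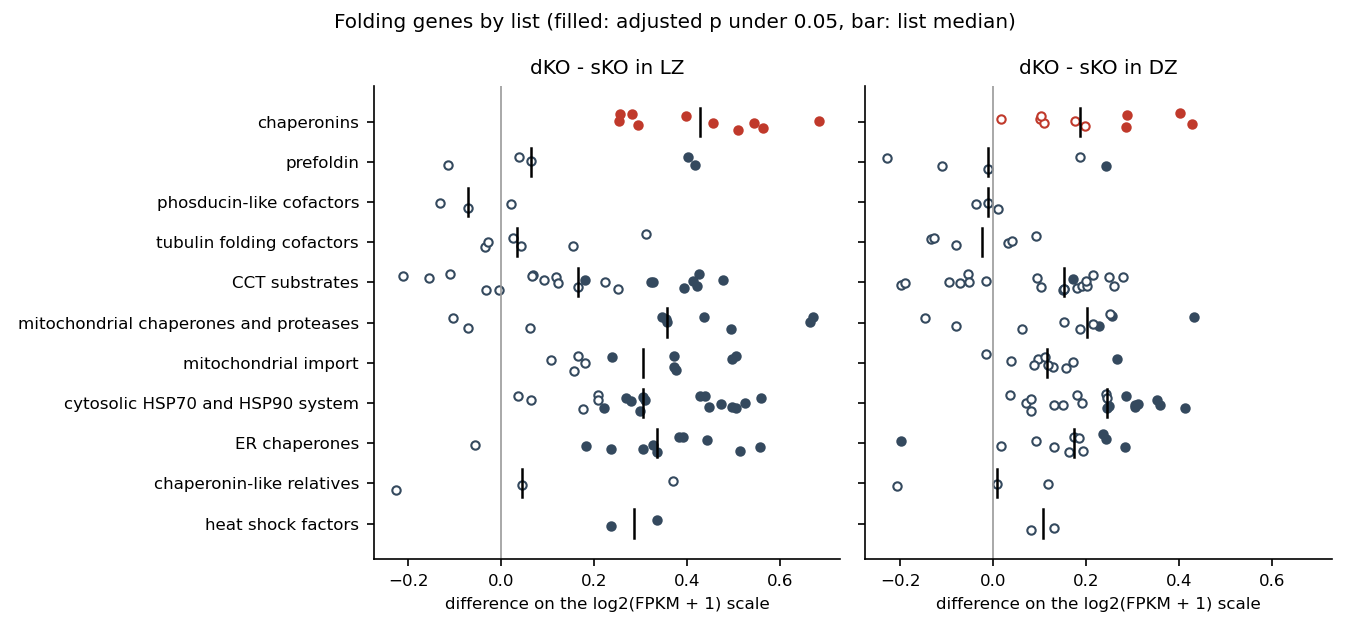
Differences between dKO and sKO on the log2(FPKM + 1) scale (horizontal axis) in LZ (left) and DZ (right) for each tested gene of the chaperonins and of each folding list, filled where the adjusted p was under 0.05, with a bar at the list median. In LZ the chaperonin median lies at 0.43, that of mitochondrial chaperones and proteases at 0.36 and that of the tubulin folding cofactors at 0.034.

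The genes closest to the mean chaperonin profile were sought among 7165 genes with a mean of at least 5 FPKM. Likeness was the root mean square difference over the 8 libraries between centred log2(FPKM + 1) profiles, and smaller is closer. The closest were Hspa8 at 0.0254, Eif4e at 0.0274, Ddx27 at 0.0311, Cnbp at 0.0325 and Nars at 0.0334. In LZ, Hspa8, the constitutive cytosolic HSP70, was at 1080.1 ± 27.9 FPKM in sKO and 1472 ± 2.09 FPKM in dKO (SD, n = 2), and in DZ at 954 ± 28.3 and 1134 ± 2.20 FPKM. In LZ, Eif4e, the cap-binding factor of translation, was at 36.5 FPKM in sKO and 49.0 FPKM in dKO, and in DZ at 33.2 and 38.6 FPKM. Each of these genes lay nearer the mean profile than any single chaperonin gene did, but they were picked as the closest of 7165, so this is no separate result. Of the chaperonins, Cct8 was the nearest, at 0.0493, and Hspe1 the farthest, at 0.225.

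Some chaperonin genes overlap a neighbour, and no label says that the libraries were stranded, so reads of the overlap can count for either gene. In RefSeq, Tcp1 overlaps Mrpl18 over 1459 bases and Acat3 over 1238 bases. Mrpl18, a mitochondrial ribosomal protein gene, went from 88.1 to 112 FPKM in LZ (0.34 ± 0.038, adjusted p = 0.00192 by limma), and Acat3 rose by 0.23 ± 0.047 (adjusted p = 0.0131 by limma). The Tcp1 value is therefore uncertain. Cct7 overlaps Pradc1 over 483 bases, Cct8 overlaps Usp16 over 191 bases, Hspd1 and Hspe1 overlap each other over 96 bases, and Cct6a overlaps Psph over 88 bases. Usp16 differed by 0.014 in LZ (adjusted p = 0.904 by limma) and Psph by 0.27 (adjusted p = 0.176 by limma). The values of Pradc1 were not examined, so its overlap with Cct7 was left unchecked. RefSeq symbols also name 14 pseudogenes after the chaperonins, of which 7 are of Hspe1, 5 of Hspd1 and 1 each of Cct3 and Tcp1. How the authors' counting treated reads that match both a gene and its pseudogenes is not given in the sources used here. The values of these genes are uncertain to that degree.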

How the data were processed

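RNA of sorted donor germinal centre B cells was sequenced as 8 libraries in 4 groups of 2, and groups were taken from the sample titles. Per the file headers, the deposited table holds FPKM values by gene symbol, computed by the authors. The submitters' processing notes name TopHat2 2.0.8, Cufflinks 2.1.1 and mm9, and their options and the gene annotation are not given in the sources used here. The line of library codes under the header was dropped, and 0 columns lacked a sample. Counts and depth are unknown from FPKM, so no count test and no interval on counting error was made.

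Values were taken as log2(FPKM + 1), so that changes of low genes are understated, and a gene was kept if 2 or more libraries had 1 FPKM or more (10610 genes). The fit was made with limma 3.58.1 in R 4.3.3 on 4 group means with an intensity trend, 4 residual and 2.46 prior degrees of freedom. The 5 contrasts were tested 2-sided at an adjusted p of 0.05, with Benjamini-Hochberg adjustment over the genes of a contrast, and "rose" and "fell" are used of genes past it. The code was tested on simulated data. Members, gene lists and tests were chosen with earlier results of these data known. All 10 chaperonins were named, with the 3 smallest LZ genotype p-values of each list, any gene of a list of at most 6, overlapping neighbours and the 5 closest profiles. Other genes named (Pdia4, markers, Bach2, Prdm1, the actin genes and further CCT substrate, HSP70 and HSP90 genes) were chosen after their values were seen.

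Alternatives were 3 scalings, 2 pseudocounts, 2 filters, 2 variance priors, only the libraries compared, a replicate block and leaving out each library. A common FPKM sum and leaving out both LZ replicate 2 libraries were added after seeing the data, as were the counts of the gene lists under these settings. Promoter sequences are from the RefSeq table of GRCm38.p6, a build other than that of the files, and were matched by symbol.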

Additional observations from a re-analysis of the deposited data

How the results depend on the processing

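With 2 libraries a group and no counts, small differences are at the limit of these data. Leaving out 1 library in turn, the chaperonin genes higher numbered 9 to 10 for dKO against sKO in LZ, 0 to 4 in DZ, 3 to 4 for LZ against DZ in sKO and 6 to 8 in dKO, and 0 passed for the difference between zones. Cct5 in LZ missed the threshold without the dKO LZ replicate 1 library (adjusted p = 0.0513 by limma). Without both LZ replicate 2 libraries, fewer genes passed in dKO LZ, among the chaperonins and over all tested genes, and the chaperonin median was 0.44. For LZ against DZ in sKO, upper quartile scaling gave 5 higher genes and quantile normalization 6. With the same FPKM sum per library, 2 were lower there, and 6 were higher in dKO DZ. Some of these fits had fewer libraries, and the cause of these changes was not tested. Fewer of all tested genes were higher in dKO DZ, too, without any 1 of the DZ libraries.

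Small differences changed sign. Cct4 in DZ was -0.0031, -0.0022 and -0.016 with upper quartile scaling, median ratio scaling and quantile normalization. Tcp1 for LZ against DZ in dKO was -0.021 with quantile normalization and -0.043 with the same FPKM sum. For LZ against DZ in sKO, the same FPKM sum gave -0.039 for Cct5 and -0.023 for Cct2, and leaving out 1 library gave -0.030 to 0.062 for Cct5, with -0.0074 without the sKO LZ replicate 1 library. Over all genes, the share of calls that were higher in dKO LZ was 59% and was 45.5% with upper quartile scaling. In DZ it was 55.9%, and 66.8% with the same FPKM sum. For LZ against DZ the same sum moved it from 48.6% to 34.6% in sKO and from 52.9% to 33.8% in dKO.

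Replicate numbers are shared between groups, but nothing says that they mark a pairing, and deviations of same-numbered libraries had r of -0.108 to 0.124. With the replicate block, 10 genes were higher in LZ, 3 in DZ, and 3 and 8 between zones in sKO and dKO, and Cct8 in DZ had an adjusted p of 0.0518 by limma. With only the libraries compared, Hspd1 in DZ had an adjusted p of 0.0517 by limma, and no value could be had for the difference between zones.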
